A study of Homo sapiens with 2 samples.

Results

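SHMT1, SHMT2, MTHFD1, MTHFD1L, MTHFD2, FPGS, GGH, MTR and MTRR, enzyme genes of folate-dependent one-carbon metabolism, were taken by symbol from the gene tables of both libraries. They are 9 of 36953 genes in the files, and all 9 were found in both. Their features in the files are 195 exon regions, 1916 junctions, 337 exon-intron boundaries and 30 transcripts. MIP/5FU is a single clone that survived passage of MIP101 in rising doses of 5-fluorouracil (5-FU), has a 10-fold higher IC50 for the drug and was kept in 5 µM 5-FU. MIP101 is the parent line, a human colorectal cancer line derived from a metastasis in the liver and sensitive to 5-FU. Both cultures were grown for about 48 hours without 5-FU before RNA was taken, and 1 polyadenylated RNA library was sequenced for each line. With no replicate of either line no test was made, and every interval given is one of read counting alone. PCR duplicates could not be removed by molecular identifiers, which makes those intervals too narrow.

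Folate carries single carbon units that cells take mostly from serine and spend on thymidylate, purines and methionine. The serine hydroxymethyltransferases SHMT1 (cytosol) and SHMT2 (mitochondria) load the carbon unit onto tetrahydrofolate. MTHFD2 and MTHFD1L oxidise and release it as formate in mitochondria, and the trifunctional MTHFD1 takes formate up again in the cytosol. FPGS adds the glutamate tail that keeps folates in the cell, and GGH removes it. Methionine synthase (MTR) passes a methyl group from folate to homocysteine with a cobalamin cofactor, and MTRR reactivates that cofactor. 5-FU acts in part through a complex of its nucleotide with thymidylate synthase and a reduced folate, which is why these enzymes are of interest in a 5-FU-resistant line.

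Reads assigned to genes numbered 109693681 in MIP/5FU and 200141071 in MIP101. Over 15382 genes with at least 100 reads in the libraries together, the median log2 ratio was 0.03, with 8262 genes above 0 and 7120 below. All 12 colorectal epithelial markers had at least 100 reads over both libraries and summed to 8988 RPM (reads scaled to a total of 1000000 gene reads) in MIP/5FU and 8214 RPM in MIP101, most of it KRT8 and KRT18. CDX1 (0.474 RPM in MIP/5FU and 0.475 RPM in MIP101), GPA33 (0.447 and 0.290) and LGALS4 (0.720 and 1.79) were low in both lines. Single markers differed more, with log2 ratios of 2.76 for KRT20, -1.31 for LGALS4, -1.23 for VIL1 and -0.65 for CDH17. Hepatocyte markers summed to 0.930 RPM in MIP/5FU and 0.630 RPM in MIP101, with APOA1 and TTR at 0 in both. Fibroblast markers summed to 0.337 RPM in MIP/5FU and 0.360 RPM in MIP101, endothelial ones to 0.0365 RPM in MIP/5FU and 0.135 in MIP101, and blood ones to 0.137 in MIP/5FU and 0.0600 in MIP101. COL1A2, DCN, LUM, CDH5 and HBB were at 0 in both libraries.

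Of the sequences behind the splicing and promoter results, the first are exons that some transcripts of SHMT1 and MTRR leave out, shown because skipping them keeps or breaks the reading frame. Each is printed 5′ to 3′ from the spliced GENCODE transcript on GRCh38, with the exon in capitals and, in lower case, the last 15 bases of the exon before and the first 15 of the exon after. Exon numbers are those of the files.
SHMT1 exon 12, chr17:18335559-18335675, minus strand: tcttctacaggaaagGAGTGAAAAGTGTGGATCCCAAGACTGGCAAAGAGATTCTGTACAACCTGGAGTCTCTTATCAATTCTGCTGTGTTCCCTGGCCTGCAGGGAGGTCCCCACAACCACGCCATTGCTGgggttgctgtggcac
SHMT1 exon 13, chr17:18333166-18333288, minus strand: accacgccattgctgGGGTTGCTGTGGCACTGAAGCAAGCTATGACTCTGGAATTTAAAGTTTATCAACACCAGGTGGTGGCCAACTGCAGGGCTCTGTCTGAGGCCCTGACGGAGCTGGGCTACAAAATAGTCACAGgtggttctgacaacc
MTRR exon 3, chr5:7873373-7873526, plus strand: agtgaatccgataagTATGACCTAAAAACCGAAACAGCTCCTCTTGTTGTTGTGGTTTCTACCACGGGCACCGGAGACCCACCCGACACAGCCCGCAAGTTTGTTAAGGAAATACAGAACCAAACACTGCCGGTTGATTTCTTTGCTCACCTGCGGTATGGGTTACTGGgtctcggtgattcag
MTRR exon 10, chr5:7891372-7891414, plus strand: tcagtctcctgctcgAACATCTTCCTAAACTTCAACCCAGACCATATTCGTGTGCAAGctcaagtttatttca
The SHMT1 exons have 117 and 123 bases, each a multiple of 3, so leaving out either or both keeps the frame. The MTRR exons have 154 and 43 bases, neither a multiple of 3, so leaving out one of them shifts it.

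The promoter windows of MTHFD1 and MTHFD1L are shown because both hold a motif and the genes had nearly the same ratio between the lines. RefSeq windows on GRCh38.p14 of 250 bases before a transcript start were at hand for 6 of the 9 genes, 12 windows in all. They were searched on both strands for CACGTG, the E-box that MYC family factors bind, and for TGATGNAA, the letters of the amino acid response element that ATF4 binds. The motifs do not overlap in these windows. Capitals mark the matches.
MTHFD1, chr14:64388103-64388352, plus strand: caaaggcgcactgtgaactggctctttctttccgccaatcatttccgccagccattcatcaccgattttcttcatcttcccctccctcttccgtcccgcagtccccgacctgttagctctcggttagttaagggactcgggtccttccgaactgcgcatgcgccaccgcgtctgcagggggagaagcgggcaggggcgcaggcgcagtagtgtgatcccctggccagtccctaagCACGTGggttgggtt
MTHFD1L, chr6:150866236-150866485, plus strand: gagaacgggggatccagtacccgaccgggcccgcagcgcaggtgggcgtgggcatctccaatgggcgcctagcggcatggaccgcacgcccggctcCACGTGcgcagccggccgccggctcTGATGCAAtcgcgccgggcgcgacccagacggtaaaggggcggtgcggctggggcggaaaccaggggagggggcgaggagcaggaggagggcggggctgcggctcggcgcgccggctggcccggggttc
CACGTG was in a window of MTHFD1, MTHFD1L and FPGS, 3 of the 6 genes, against 7.73% of 27305 genes in the table. The FPGS window is not printed, and FPGS had a log2 ratio of -0.05, against -0.25 for both MTHFD1 and MTHFD1L. TGATGNAA was in a window of MTHFD1L alone, 1 of the 6 genes, against 3.89% of all genes. The table has 35116 windows for its 27305 genes, fewer per gene than the 12 for these 6, so shares by gene are not on equal terms. By window, CACGTG was in 4 of 12 against 6.34%, and TGATGNAA in 2 of 12 against 3.14%. The MTHFD1L windows with the motifs overlap and share the same matches. The windows of SHMT1, MTHFD2 and MTR held neither. Of the factors, MYC had 19146 reads in MIP/5FU and 53568 in MIP101, 1.53-fold lower in MIP/5FU. ATF4 had 46118 reads in MIP/5FU and 76535 in MIP101, 1.10-fold higher in MIP/5FU. No value in the files bears on binding at these letters, and the part of either factor in the ratios was not tested.

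All 9 genes were well covered, with 4142 to 38692 reads in MIP/5FU and 9089 to 84117 in MIP101, and none differed by 2-fold or more. Over the 15382 genes tested, 2.53% were 2-fold or more higher in MIP/5FU and 3.09% were 2-fold or more lower, with a 95% interval excluding a ratio of 1. Of the enzyme genes, 4 were higher in MIP/5FU and 5 lower, where 39.8% of all genes were higher and 35.7% lower with an interval excluding 1. At 1.5-fold the count was 0 higher and 1 lower (MTR), against 8.67% and 8.14% of all genes. The median log2 ratio of the 9 was -0.05. Their reads summed to 1554 RPM in MIP/5FU and 1483 RPM in MIP101. The share of gene reads assigned to these enzymes thus moved little in sum, while single genes moved in both directions. That sum is not corrected for gene length.

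Per base of transcript, the enzymes covered a wide range in both lines. On the authors' normalized coverage per base, MTHFD2 had 1284 in MIP/5FU and 1059 in MIP101, and SHMT2 had 1278 in MIP/5FU and 966 in MIP101. MTHFD1 had 962 in MIP/5FU and 1167 in MIP101. GGH had 898 in MIP/5FU and 665 in MIP101. These 4 were the most abundant in each line, and MTHFD1 stood below MTHFD2 and SHMT2 in MIP/5FU and above both in MIP101. SHMT1 followed with 394 in MIP/5FU and 354 in MIP101. MTHFD1L had 184 in MIP/5FU and 223 in MIP101, and FPGS had 183 in MIP/5FU and 192 in MIP101. MTRR, at 97.9 in MIP/5FU and 120 in MIP101, and MTR, at 65.7 in MIP/5FU and 116 in MIP101, were the least abundant. With 1 library a line there is no spread to set neighbours in this order apart. MTHFD2 and SHMT2 in MIP/5FU, MTHFD1L and FPGS in MIP/5FU, and MTRR and MTR in MIP101 lay closest together. By the median over exon regions MTHFD2 stood below SHMT2, MTHFD1 and GGH in both lines, so its place at the top in MIP/5FU rests on the gene-wide mean.

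**Figure D1:**
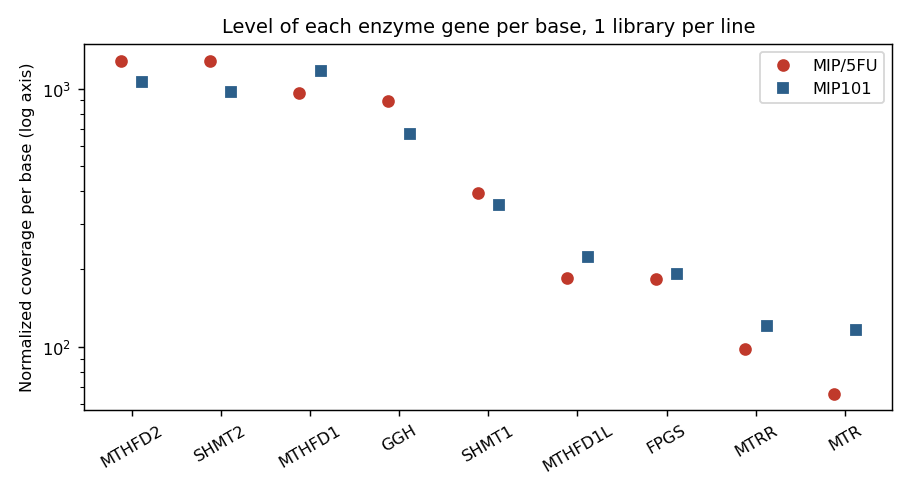
Normalized coverage per base of transcript (log axis) of the 9 enzyme genes in MIP/5FU (circles) and MIP101 (squares), ordered by the level in MIP/5FU, 1 library each and so with no error bars. MTHFD2, SHMT2 and GGH lie higher in MIP/5FU (1284, 1278 and 898) than in MIP101 (1059, 966 and 665), and MTR lies lower (65.7 against 116).

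Both serine hydroxymethyltransferases were higher in MIP/5FU, the mitochondrial one by more. SHMT2 had 34940 reads in MIP/5FU and 47467 in MIP101, or 319 and 237 RPM, 1.34-fold higher in MIP/5FU (95% interval 1.32 to 1.36, log2 ratio 0.43). SHMT1 had 19218 reads in MIP/5FU and 31012 in MIP101, or 175 and 155 RPM, 1.13-fold higher (1.11 to 1.15, log2 ratio 0.18). Among all tested genes 14.6% had a higher log2 ratio than SHMT2 and 33.4% a higher one than SHMT1. The coverage of SHMT2 over that of SHMT1 was 3.24 in MIP/5FU and 2.73 in MIP101, a difference of log2 ratios of 0.25 (0.22 to 0.28). SHMT1 shares 183 bases with SMCR8 on the other strand, which had 12206 reads in MIP/5FU and 22480 in MIP101, and the library marks no strand, so reads there cannot be assigned. Genes that overlap SHMT2, MTHFD1L and MTR had at most 48 reads in a library.

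The mitochondrial dehydrogenase MTHFD2 was higher in MIP/5FU, whereas MTHFD1 and MTHFD1L were lower and by the same amount. MTHFD2 had 37674 reads in MIP/5FU and 55737 in MIP101, or 343 and 278 RPM, 1.23-fold higher (1.22 to 1.25, log2 ratio 0.30). MTHFD1 had 38692 reads in MIP/5FU and 84117 in MIP101, or 353 and 420 RPM, 1.19-fold lower (1.18 to 1.21, log2 ratio -0.25). MTHFD1L, the mitochondrial formate-releasing synthetase, had 8872 reads in MIP/5FU and 19264 in MIP101, or 80.9 and 96.3 RPM, 1.19-fold lower (1.16 to 1.22, log2 ratio -0.25). The coverage of MTHFD1L over MTHFD1 was 0.191 in both lines, and their log2 ratios differed by 0.00 (-0.04 to 0.04). That of MTHFD2 over MTHFD1 was 1.33 in MIP/5FU and 0.907 in MIP101, a difference of 0.56 (0.53 to 0.58). The coverage of MTHFD2 over MTHFD1L was 6.98 in MIP/5FU and 4.74 in MIP101, a difference of 0.55 (0.51 to 0.59). The pair of mitochondrial enzymes that follow one another in formate production thus had ratios of opposite sign. MTHFD2L, a second mitochondrial dehydrogenase, had 300 reads in MIP/5FU and 600 in MIP101 (log2 ratio -0.13, -0.34 to 0.07). MTHFD2 has processed pseudogenes whose reads could be confused with its own. MTHFD2P7 had 8 reads in MIP/5FU and 27 in MIP101, and MTHFD2P5 had 3 in MIP/5FU and 4 in MIP101. MTHFD2P2 had 0 reads in both libraries. The remaining pseudogenes of MTHFD2 and those of SHMT1 and MTHFD1 were not matched to the files, so reads shared with them are not counted here.

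Of the enzymes of the folate glutamate tail, GGH was the member with the highest ratio and FPGS the one nearest to no difference. GGH had 14568 reads in MIP/5FU and 19326 in MIP101, or 133 and 96.6 RPM, 1.38-fold higher in MIP/5FU (1.35 to 1.41, log2 ratio 0.46), and 13.2% of tested genes had a higher one. FPGS had 6311 reads in MIP/5FU and 11881 in MIP101, or 57.5 and 59.4 RPM, 1.03-fold lower (1.00 to 1.06, log2 ratio -0.05). The coverage of the tail-removing GGH over the tail-adding FPGS was 4.91 in MIP/5FU and 3.46 in MIP101, a difference of log2 ratios of 0.50 (0.45 to 0.56).

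The methionine synthase arm was lower in MIP/5FU, and MTR stood farthest from 0 among the 9. MTR had 5998 reads in MIP/5FU and 18979 in MIP101, or 54.7 and 94.8 RPM, 1.73-fold lower (1.68 to 1.79, log2 ratio -0.79). Of all tested genes, 4.68% had a lower ratio and 173 lay within 0.05 of it on the log2 scale. MTRR had 4142 reads in MIP/5FU and 9089 in MIP101, or 37.8 and 45.4 RPM, 1.20-fold lower (1.16 to 1.25, log2 ratio -0.27). The coverage of MTR over that of its reactivating partner MTRR was 0.672 in MIP/5FU and 0.968 in MIP101, a difference of log2 ratios of -0.53 (-0.60 to -0.46). Among genes of the pathway lists, the nearest to the log2 ratio of MTR (-0.79) were ALDH1L1 at -0.80, MTHFS at -0.89 and MMACHC at -0.66, a likeness that rests on 1 ratio between 2 libraries.

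The other genes of folate and one-carbon metabolism were taken as 5 lists of 39 genes, of which 35 had at least 100 reads over both libraries. Of these, 14 were above 0 and 21 below on the log2 scale, with a median of -0.09 against 0.03 for all tested genes. At 1.5-fold, 2 were higher in MIP/5FU and 6 lower, against 8.67% and 8.14% of all genes, which would be about 3 of 35 in each direction. The largest difference was in FOLR1, the high-affinity folate receptor at the cell surface, with 40 reads in MIP/5FU and 1687 in MIP101, 22.8-fold lower in MIP/5FU (16.9 to 32.5). The reduced folate carrier SLC19A1 had 8767 reads in MIP/5FU and 17129 in MIP101 (log2 ratio -0.10), the proton-coupled transporter SLC46A1 1876 and 3728 (-0.12), and the mitochondrial carrier SLC25A32 8288 and 14547 (0.06). Per base, FOLR1 had a normalized coverage of 1.99 in MIP/5FU and 46.7 in MIP101, and SLC46A1 had 22.4 in MIP/5FU and 24.8 in MIP101, so FOLR1 stood below SLC46A1 in MIP/5FU and above it in MIP101. SLC19A1, at 213 in MIP/5FU and 231 in MIP101, stood above FOLR1 in both lines. FOLR2 and FOLR3 had at most 5 reads in a library and were not tested.

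Among 11 other folate enzymes, 3 were above 0 and 8 below, with a median of -0.28. TYMS, thymidylate synthase and the target of the 5-FU nucleotide, had 75428 reads in MIP/5FU and 87172 in MIP101, 1.58-fold higher (log2 ratio 0.66, 0.65 to 0.67). ALDH1L2, the mitochondrial formyltetrahydrofolate dehydrogenase, had 53 reads in MIP/5FU and 47 in MIP101, a log2 ratio of 1.04 with a wide interval (0.45 to 1.64). Lower by 1.5-fold or more were MTHFS, ALDH1L1 and FTCD. MTHFS, which returns 5-formyltetrahydrofolate to use, had 1580 reads in MIP/5FU and 5361 in MIP101, 1.86-fold lower (log2 ratio -0.89, -0.98 to -0.81). ALDH1L1, the cytosolic formyltetrahydrofolate dehydrogenase, had 1161 reads in MIP/5FU and 3700 in MIP101, 1.75-fold lower (-0.80, -0.90 to -0.71). FTCD, which takes a formimino group from histidine breakdown, had 55 reads in MIP/5FU and 197 in MIP101 (-0.96, -1.43 to -0.54). The purine enzymes GART, at 33634 reads in MIP/5FU and 75818 in MIP101, and ATIC, at 20059 and 44288, which use formyltetrahydrofolate, had log2 ratios of -0.31 and -0.28.

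In the methionine cycle and cobalamin list, 6 of 12 tested genes were above 0 and 6 below, with a median of 0.07. MAT1A, the liver-type S-adenosylmethionine synthetase, had 76 reads in MIP/5FU and 293 in MIP101, 2.10-fold lower (log2 ratio -1.07, -1.46 to -0.71). MMACHC, which processes cobalamin for MTR, had 1613 reads in MIP/5FU and 4660 in MIP101, 1.58-fold lower (-0.66, -0.75 to -0.58). Its partner MMADHC had 12733 reads in MIP/5FU and 23550 in MIP101, a log2 ratio of -0.02. MAT2A, the S-adenosylmethionine synthetase of most tissues, was at 63163 reads in MIP/5FU and 98654 in MIP101 (log2 ratio 0.22), and AHCY, which splits S-adenosylhomocysteine, at 39367 in MIP/5FU and 54003 in MIP101 (0.41). Serine synthesis had 1 gene above 0 and 2 below and none at 1.5-fold, with PSPH at -0.21 and PSAT1 at -0.09. In glycine cleavage and choline breakdown, 3 of 5 tested genes were above 0 and 2 below, none at 1.5-fold, and the largest ratios were 0.27 for AMT and 0.17 for DLD. The 12 proliferation genes, listed because folate enzymes can follow growth rate, had 4 ratios above 0 and 8 below, with a median of -0.03 and none at 1.5-fold.

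**Figure D2:**
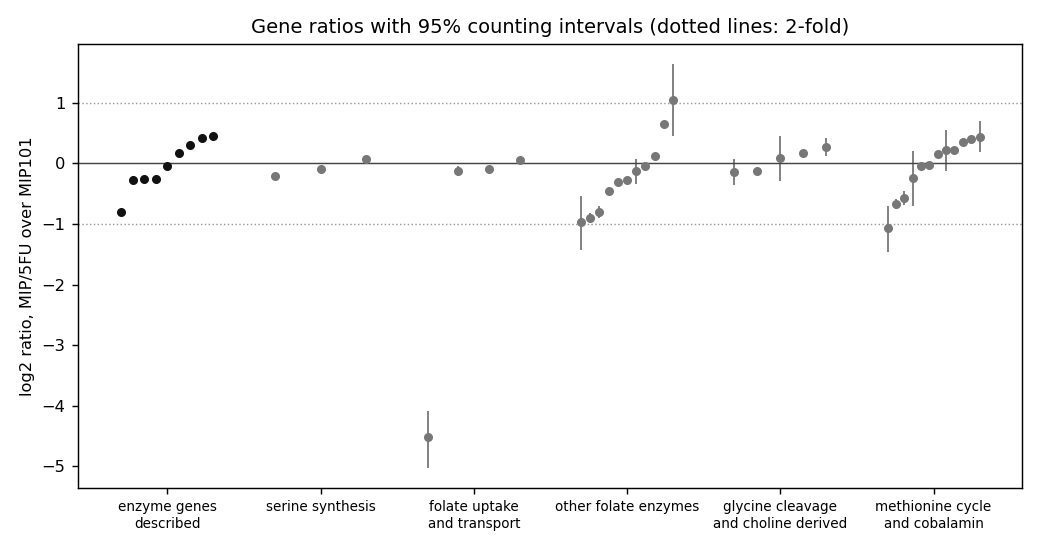
Gene log2 ratios, MIP/5FU over MIP101, with 95% counting intervals, for the 9 enzyme genes (black) and the tested genes of 5 pathway lists (grey), each group sorted from low to high; dotted lines mark 2-fold. The 9 enzymes lie between -0.79 (MTR) and 0.46 (GGH), and FOLR1 at -4.51 stands apart in the uptake list.

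Nearly all exon regions and junctions of a gene had the sign of the gene, except in FPGS. All 33 tested exon regions of MTR lay below 0, from -1.15 to -0.37 on the log2 scale, and so did all 32 of its tested junctions between neighbouring exons. MTHFD1 had 28 of 28 exon regions and 27 of 27 such junctions below 0, and MTHFD1L 31 of 31 and 25 of 25. For MTRR the counts were 15 of 15 and 13 of 14. On the higher side, SHMT2 had 14 of 14 exon regions and 11 of 11 junctions above 0, GGH 9 of 9 and 8 of 8, and MTHFD2 10 of 10 and 6 of 7. SHMT1 had 16 of 17 and 9 of 10 above 0. FPGS, with a gene ratio near 0, had 5 of 18 exon regions and 4 of 13 junctions above 0. Features of a gene share its library and its reads and are no replicates.

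**Figure D3:**
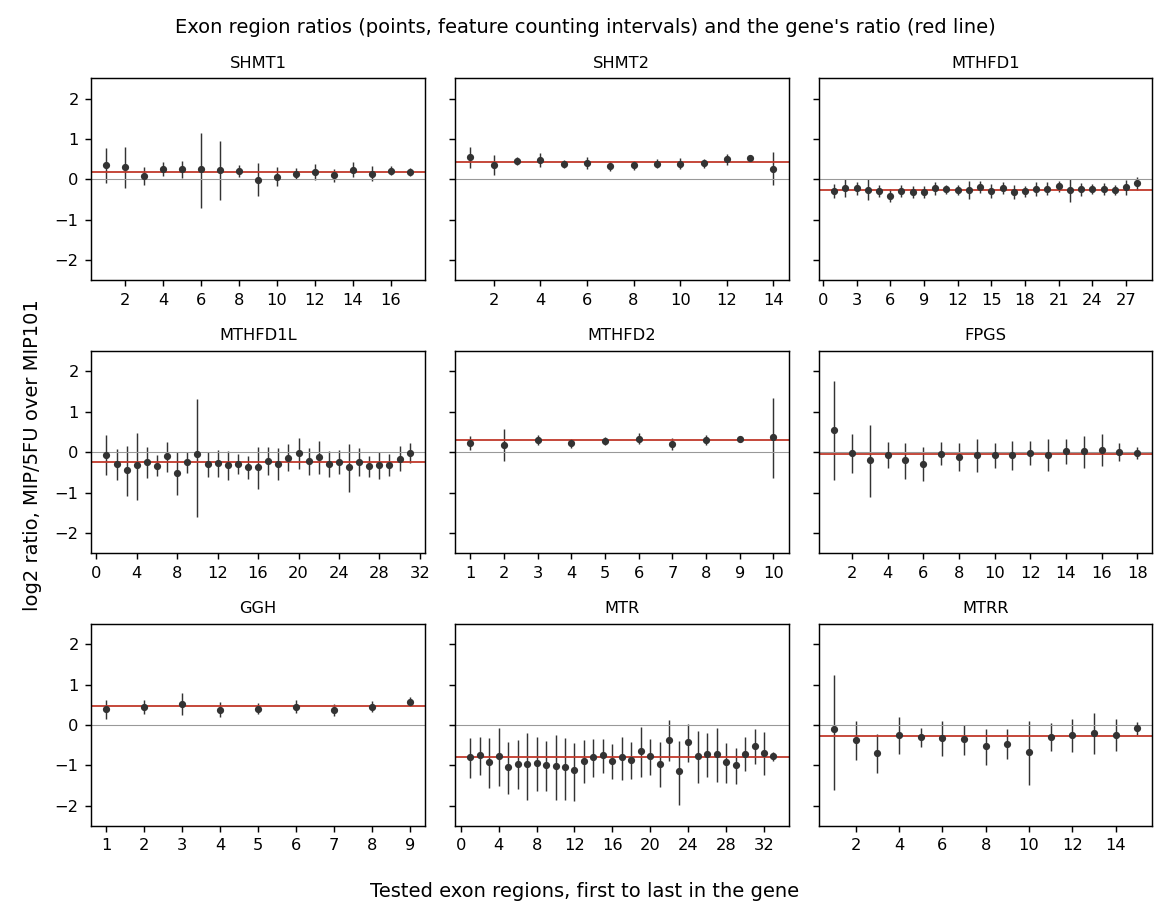
Log2 ratio, MIP/5FU over MIP101, of each tested exon region (points, counting intervals with 0.1% outside) from the first to the last in the gene, with the gene's own ratio as a red line and 0 as a grey line. Points lie close to the gene's line, with every MTR region below 0 and every SHMT2, MTHFD2 and GGH region above 0.

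The splicing index, a feature's log2 ratio minus that of its gene, asks whether the lines used different parts of a gene. No feature of the 9 genes reached an absolute index of 1 with an interval excluding 0, set so that 0.1% lies outside it. The tested features were 175 exon regions, 163 junctions, 42 boundaries and 15 transcripts. Over all genes the share counted as higher was 0.164% of exon regions, 0.0559% of junctions, 0.741% of boundaries and 0.5% of transcripts, and as lower 0.111%, 0.0997%, 0.122% and 0.191%. At those shares a count of 0 among so few features is near the background. Counted at any size with an interval excluding 0, 4 of the 175 exon regions were higher than their gene and 0 lower, against 1.96% and 1.22% of all tested exon regions. All 4 lie in the last exon, 12a of SHMT2 (index 0.10, 0.03 to 0.18), 28a of MTHFD1 (0.16, just above 0 to 0.31), 15a of MTRR (0.18, 0.03 to 0.34) and 9a of GGH (0.12, 0.01 to 0.23). Region 32a in the last exon of MTHFD1L had an index of 0.23 (-0.02 to 0.47), while those of MTR (33a, 0.02) and MTHFD2 (9a, 0.03) were close to 0. The other region of the last SHMT2 exon, 12b, had -0.16 (-0.56 to 0.24), and no last-exon region of SHMT1 or FPGS was counted. The higher count is near its background. Last exons were singled out after these values were seen, and no share was computed for last exons over all genes. SHMT2 12a and MTRR 15a were named after their values were seen. Within an index of 0.5 on either side lay 99.4% of the members' exon regions, against 96.4% over all genes, and 93.9% of junctions, against 87.2%.

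The largest exon region indices were those of region 1a of FPGS (29.6 read equivalents in MIP/5FU and 37.0 in MIP101, index 0.60) and region 3a of MTRR (135 and 402, index -0.43). Region 22a of MTR, with 126 read equivalents in MIP/5FU and 298 in MIP101, had an index of 0.43. In the other genes the largest index was -0.26 (6b of MTHFD1L), -0.18 (10a of SHMT1), -0.16 (12b of SHMT2), 0.16 (28a of MTHFD1), -0.12 (2a of MTHFD2) and 0.12 (9a of GGH). In junctions, the skip from exon 7 to 9 of MTRR had 4 reads in MIP/5FU and 18 in MIP101 (index -0.91), and the last junction of MTRR, from exon 14 to 15, had 41 in MIP/5FU and 50 in MIP101 (0.85). The MTR junction from exon 10 to 11 had 18 reads in MIP/5FU and 99 in MIP101 (-0.77, interval -2.20 to 0.36). In SHMT1 the skip from exon 3 to 9 had 6 reads in MIP/5FU and 17 in MIP101 (-0.74). In FPGS the junction from exon 4 to 5 had 85 reads in MIP/5FU and 226 in MIP101 (-0.49), and in MTHFD1L that from exon 12 to 13 had 64 in MIP/5FU and 191 in MIP101 (-0.45). The other genes had their largest junction index at exon 2 to 3 of MTHFD2 (-0.43), 24 to 26 of MTHFD1 (-0.39), 4 to 5 of GGH (-0.20) and 4 to 5 of SHMT2 (-0.18). The intervals of all junctions named here include 0.

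Boundary reads cross from an exon into the intron beside it. The largest index was at the start of exon 14 of SHMT1, with 15 reads in MIP/5FU and 7 in MIP101 (1.74, -0.41 to 4.45), and at the start of exon 13 of FPGS, with 14 in MIP/5FU and 8 in MIP101 (1.68, -0.46 to 4.22). Other genes had their largest index at the end of exon 17 of MTHFD1 (-0.79), exon 8 of MTHFD1L (-0.73), exon 3 of SHMT2 (0.72), exon 8 of MTRR (0.63) and exon 20 of MTR (0.61), from 6 to 16 reads in MIP/5FU and 9 to 59 in MIP101. All of these intervals include 0, and MTHFD2 and GGH had no boundary over the read minimum. Boundaries with no Ensembl transcript took 3.27% of boundary plus junction reads of the 9 genes in MIP/5FU and 3.36% in MIP101, against 7.39% and 6.62% over all genes. MTRR had the highest share of the 9, 14.9% in MIP/5FU (12.2 to 17.8) and 13.5% in MIP101 (11.8 to 15.4), and MTHFD2 the lowest, 1.10% and 0.766%. The share of MTR was 5.40% in MIP/5FU (3.98 to 7.14) and 3.77% in MIP101 (3.09 to 4.55), with overlapping Clopper-Pearson 95% intervals.

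Skipping shares were compared by their intervals, which is no test of the difference. The 9 genes had 22 exon-skipping junctions with at least 10 reads over both libraries, 11 in Ensembl transcripts, 4 in mRNAs or ESTs only and 7 with no such record. For all 22 the 95% intervals of the 2 lines overlapped, a count not set against skipping junctions of other genes. Some had no inclusion reads and 100% in both lines, so they had to overlap. These were exon 3 to 8 of SHMT1 and exons 26 to 28 and 29 to 31 of MTHFD1L. The share is that of skipping reads among skipping plus mean inclusion reads. The junction that leaves out exon 12 of SHMT1, printed above, had 71 reads in MIP/5FU and 135 in MIP101, a share of 26.4% (21.3 to 32.1) and 29.0% (24.9 to 33.4). The one that leaves out exons 12 and 13 together had 29 reads in MIP/5FU and 38 in MIP101, a share of 11.0% (7.52 to 15.5) and 8.98% (6.44 to 12.1). In both lines, then, a sizeable part of SHMT1 transcripts lacked in-frame coding exons. The SHMT1 junction from exon 1 to 3 had a share of 1.55% in MIP/5FU and 1.40% in MIP101. That from exon 3 to 9 had 4.56% in MIP/5FU and 7.96% in MIP101, but its first flanking junction, from exon 3 to 4, had no reads. Against the last flank alone the share was 2.33% in MIP/5FU and 4.15% in MIP101. The SHMT1 junction from exon 3 to 8 had 168 reads in MIP/5FU and 271 in MIP101 and no reads of its flanking inclusion junctions in either. It is in 4 Ensembl transcripts. Its reads were not counted as inclusion for the skip to exon 9, so the shares of 4.56% and 7.96% are too high.

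In MTRR, the frame-shifting skip of exon 3 had 14 reads in MIP/5FU and 26 in MIP101, a share of 45.9% (27.8 to 64.8) and 39.1% (27.4 to 51.8). The skip of exon 10, in no transcript or EST of the files, had 13 reads in MIP/5FU and 18 in MIP101, a share of 24.8% (13.9 to 38.6) and 16.1% (9.81 to 24.2). That of exon 8 had a share of 7.69% in MIP/5FU and 12.8% in MIP101. MTRR thus had both the highest boundary share and frame-shifting skips in each line, at its low depth. In MTHFD2 the junction from exon 1 to 3 had 47 reads in MIP/5FU and 58 in MIP101, a share of 44.5% (34.9 to 54.5) and 33.6% (26.6 to 41.2). Its flanking junctions were unequal, 7 reads into exon 2 and 110 out of it in MIP/5FU and 10 and 219 in MIP101, and the share against the first alone was 87.0% in MIP/5FU and 85.3% in MIP101. With such flanks the mean gives no firm skipping share. The junction from exon 1 to 3 is in 4 Ensembl transcripts and each flank in 1, so passing exon 2 is the more annotated form. The skip from exon 1 to 4 of MTHFD2 had 4 reads in MIP/5FU and 12 in MIP101, a share of 1.53% and 2.95%. Its flanks are as unequal, and the share was 36.4% in MIP/5FU and 54.5% in MIP101 against the first alone, and 0.783% in MIP/5FU and 1.52% in MIP101 against the last.

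The skip of exon 3 of SHMT2, whose 80 bases are not a multiple of 3, had a share of 2.49% in each line, from 13 reads in MIP/5FU and 17 in MIP101. The 5 MTHFD1 skips had shares of 0.808% to 3.12% in MIP/5FU and 0.459% to 2.38% in MIP101. MTHFD1L had a skip from exon 19 to 21 with 7 reads in each line, a share of 10.5% in MIP/5FU (4.34 to 20.5) and 4.79% in MIP101 (1.95 to 9.63). The other 4 MTHFD1L skips pass exons with few or no inclusion reads, with shares of 91.8% to 100% in MIP/5FU and 92.5% to 100% in MIP101. For FPGS the junction from exon 1 to 3 had 21 reads in MIP/5FU and 52 in MIP101, and exon 2, another start exon, had 0 inclusion reads in MIP/5FU and 5 in MIP101, a skipping share of 100% (83.9 to 100) in MIP/5FU and 95.4% (86.0 to 99.2) in MIP101.

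**Figure D4:**
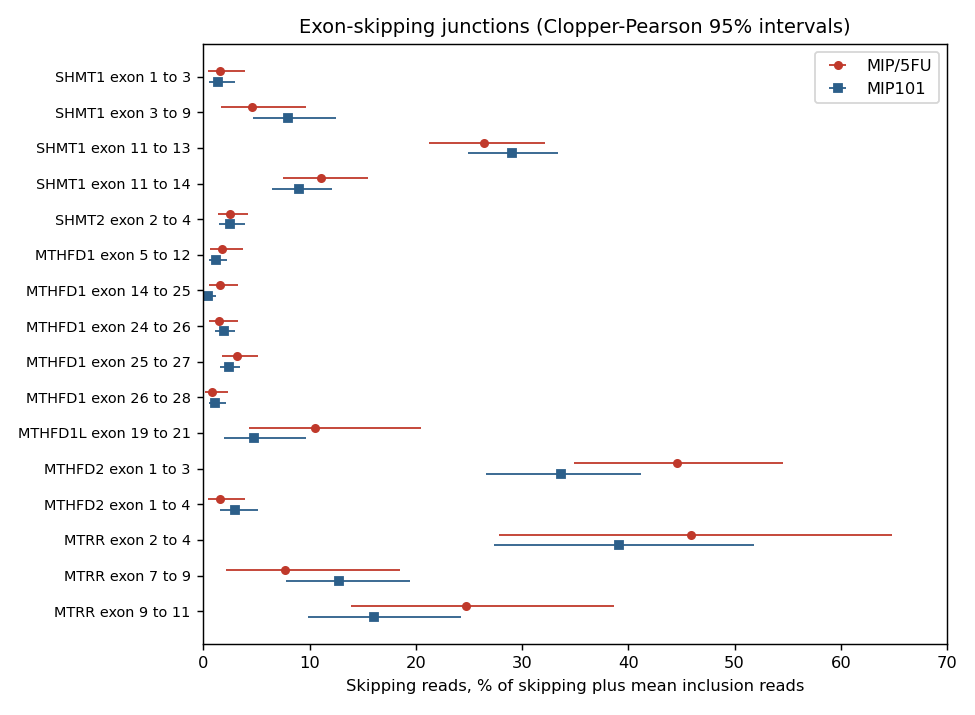
Share of skipping reads among skipping plus mean inclusion reads (x axis, %) with Clopper-Pearson 95% intervals for the 16 skipping junctions whose share in MIP101 is under 90%, in MIP/5FU (circles, upper of each pair) and MIP101 (squares, lower). The intervals of the lines overlap in every pair, as for exon 11 to 13 of SHMT1 at 26.4% and 29.0%.

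Transcript values in the files come from the exon regions and junctions that a transcript does not share, and 23 of the 30 transcripts had reads. MTHFD1, MTR and GGH have 1 transcript each, and its log2 ratio was -0.26 for MTHFD1, -0.80 for MTR and 0.44 for GGH. The long MTRR transcript ENST00000264668 had 3732 read equivalents in MIP/5FU and 8195 in MIP101 (log2 ratio -0.27), and the short ENST00000341013 had 32.5 in MIP/5FU and 63.2 in MIP101 (-0.08). For SHMT2, ENST00000328923, which holds exon 3 and ends farther 3′, had 2600 read equivalents in MIP/5FU and 3435 in MIP101 (log2 ratio 0.47). ENST00000393827, which skips exon 3 and starts farther 5′, had 661 in MIP/5FU and 828 in MIP101 (0.54), far more than the 13 and 17 reads of the skip itself, so its value comes mostly from its start. Both SHMT2 transcripts had the sign of the gene. For MTHFD1L, the full-length ENST00000367321 had 1105 read equivalents in MIP/5FU and 2152 in MIP101 (-0.09, index 0.16) and the short ENST00000367307 had 33.7 in MIP/5FU and 66.3 in MIP101 (-0.10), while ENST00000367308, ENST00000367310 and ENST00000392243 had under 4 in both libraries. MTHFD2 ENST00000394050, with exon 2, had 345 in MIP/5FU and 594 in MIP101 (0.09, index -0.22), and ENST00000409804 under 4 in each.

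Among SHMT1 transcripts, ENST00000354098 and ENST00000352886 are each measured by 1 skipping junction alone, so their values repeat the reads of that junction. ENST00000354098, marked by the skip of exon 12, had 69.9 read equivalents in MIP/5FU and 132 in MIP101 (log2 ratio -0.04), and ENST00000352886, marked by the skip of exons 12 and 13, had 28.9 in MIP/5FU and 36.8 in MIP101 (0.53, index 0.35, -0.91 to 1.56). ENST00000329968 had 23.9 in MIP/5FU and 63.6 in MIP101 and the lowest index of any tested transcript of the 9 genes (-0.70, -1.98 to 0.40). ENST00000395684 had 219 in MIP/5FU and 398 in MIP101 (index -0.17), ENST00000395682 had 22.7 in MIP/5FU and 25.9 in MIP101, and ENST00000395685 under 1 in both. For FPGS only ENST00000373225 passed the minimum, with 44.7 in MIP/5FU and 97.9 in MIP101 (log2 ratio -0.26), beside ENST00000373228 and ENST00000373244 at no more than 4.13 each.

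MIP/5FU is a clone, so each gene was also set beside the 40 nearest tested protein-coding genes on its chromosome. The genes are on different chromosomes, 17 (SHMT1), 12 (SHMT2), 14 (MTHFD1), 6 (MTHFD1L), 2 (MTHFD2), 9 (FPGS), 8 (GGH), 1 (MTR) and 5 (MTRR). For 7 of the 9 the median of the neighbours had the sign of the gene, a count for which no share over all genes was computed. Around MTR, at chr1:235025341-235130585 on hg18, 31 of 40 neighbours were below 0 with a median log2 ratio of -0.37, and 6 were lower than MTR itself. Around MTHFD1, at chr14:63924821-63996474, 36 of 40 neighbours were below 0 with a median of -0.35, against -0.25 for the gene. Around MTHFD1L, at chr6:151228384-151464714, 32 of 40 were below 0 with a median of -0.34, against -0.25. The equal ratios of MTHFD1 and MTHFD1L stood beside neighbours that were lower by similar amounts. Over all other tested protein-coding genes of the chromosome, the median was -0.35 on chromosome 14 and -0.26 on chromosome 6. The lowering was therefore not confined to these neighbours. On chromosome 1, which holds MTR, that median was -0.02. The medians around SHMT1, SHMT2, MTHFD2 and GGH were 0.12, 0.05, 0.02 and 0.11, against 0.03 for all tested genes. Of the 40 neighbours, 24, 30, 32 and 34 lay below the gene. FPGS and MTRR were lower than their surroundings, with medians of 0.17 and 0.16 around them and 4 and 6 neighbours below the gene. Copy number was not measured in these libraries, and its part in the ratios was not tested.

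**Figure D5:**
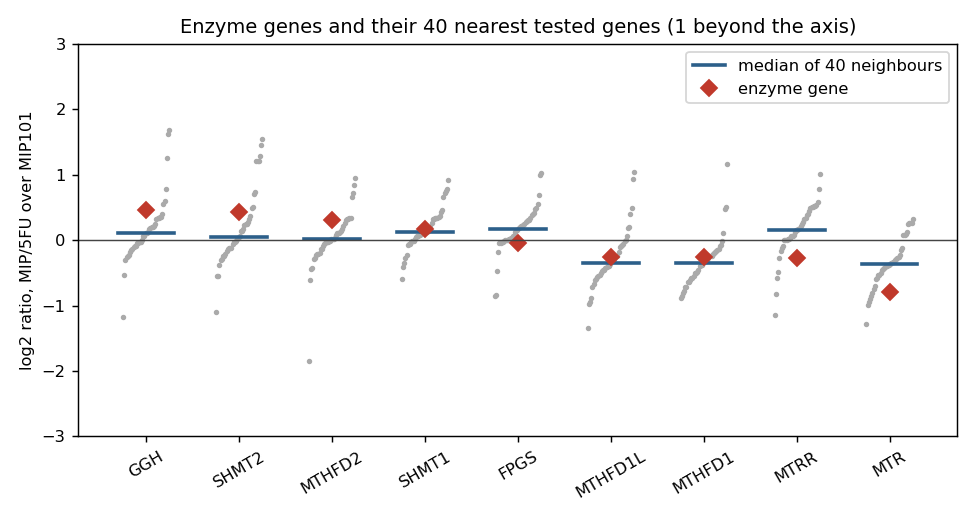
Log2 ratio, MIP/5FU over MIP101, of each enzyme gene (diamond), of its 40 nearest tested protein-coding genes (grey points, sorted) and their median (bar), with genes ordered by ratio and 1 neighbour beyond the axis not drawn. MTHFD1 and MTHFD1L lie near their neighbours' medians (-0.35 and -0.34), and MTR at -0.79 lies below a median of -0.37.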

How the data were processed

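The labels describe cDNA made with random hexamers from polyadenylated RNA, size selected at 190 to 210 bp, amplified by 10 PCR cycles and read in pairs of 42 or 36 bases, with no step that marks strand. With an aligner not given in the sources used here, the authors placed reads on features of Ensembl release 53, per the file names, on hg18, per the submitters' processing notes. Raw read counts as deposited are in the gene, junction and boundary files. All 5 kinds of file hold a coverage signal that the authors summed over bases and a coverage per base that they normalized by 1 factor for each library and kind of feature. Exon region and transcript files have coverage in place of counts, although the design had assumed reads, so read equivalents were computed as coverage over mean bases per read, 39.8 in MIP/5FU and 40.4 in MIP101.

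Log2 ratios compare shares of gene reads after adding 0.5 reads, with exact conditional binomial intervals, 95% for genes and 99.9% for features. Differences of 2 log2 ratios have normal-approximation counting intervals. Genes needed 100 reads over both libraries, exon regions and transcripts 50 read equivalents, and junctions and boundaries 20 reads, and features were tested where their gene had 200 reads in all and 10 in each library. Depth was 109693681 gene reads in MIP/5FU and 200141071 in MIP101, with 13022878 and 24925624 junction reads, and sets the width of every interval.

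The 9 genes and the lists were chosen with earlier results of these data known. Named were all 9 genes, the feature of each kind with the largest absolute index per gene, all skipping junctions with at least 10 reads, all transcripts with values, and of each list the genes past 1.5-fold or else the 2 with the largest absolute ratio. GART, ATIC, MAT2A, AHCY, MMADHC, MTHFD2L and the carriers were added for their roles after their values were seen. Some members of the lists are not reported here. The entries matched as EPCAM and CDK1 have the older symbols TACSTD1 and CDC2 in the files. RefSeq promoter windows and GENCODE 29 transcripts on GRCh38 gave the sequences, matched by symbol, and exons were matched by their own and a neighbouring exon's length. Protein sequences were not used here. Alternatives were other scalings, read minima, folds, index sizes, gene ratios from feature medians, inclusion junctions, level scales and numbers of neighbours. The trimmed mean (TMM) factors came from edgeR 4.0.16 in R 4.3.3, and the rest from scipy 1.17.1, pandas 2.3.3, numpy 2.4.6 and matplotlib 3.10.9 in Python 3.11.15.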

Additional observations from a re-analysis of the deposited data

How the results depend on the processing

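No paired analysis was possible because there is 1 library per line and no test was made. Scaling by TMM factors or by the median of gene ratios lowered every log2 ratio by 0.05 or 0.03, and no member's ratio changed sign under these scalings, the authors' normalized coverage, or the median of exon regions or canonical junctions. The most any member moved was 0.05 under scaling and 0.10 under the junction median. The counts of 4 genes above 0 and 1 past 1.5-fold were the same under all of these. With no read minimum, 968 genes were 2-fold or more higher and 858 lower in MIP/5FU; with at least 500 reads, 220 and 299; at 1.5-fold, 1334 and 1252. The main counts were 389 and 475. Pathway genes 1.5-fold or more lower numbered 6 or 7 and higher 2 under every alternative. The count of 0 features held with doubled or halved read minima, the feature median as gene ratio and an absolute index of 0.5. Intervals of skipping shares overlapped in all 22 with either flanking junction alone. Ranking levels by the median over exon regions left 4 of 9 genes at their place in MIP/5FU; the cause was not tested. With 20 or 80 neighbours, 7 of 9 medians again had the gene's sign. Depth limits the features of MTRR and MTR most, where no tested junction had more than 52 reads in MIP/5FU.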
